A study of Mus musculus with 9 samples.

Results

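Transcripts of 6 genes that encode subunits of the L-type and T-type voltage-gated calcium channels were followed through postnatal maturation of the mouse heart muscle cell. They are Cacna1c, Cacna1g and Cacna1h, which encode channel pores, and Cacnb2, Cacna2d1 and Cacng6, which encode auxiliary subunits. The genes were chosen by symbol, and all 6 had a row in the deposited count table of 15824 genes. Isolated cardiomyocytes of the CD1 strain were taken at postnatal day 1 (P1), day 14 (P14) and day 56 (P56), with 3 libraries at each age. RNA was depleted of ribosomal RNA before sequencing, and the series compares ages, so each earlier age serves as the reference for the next. Each library pooled several hearts, 12 at P1 and 6 to 7 at the later ages, and the series describes the 3 libraries of an age as biological replicates. No genotype or treatment is given for any sample. The labels' protocols speak of mice taken after surgery, and describe isolation of whole myocytes as well as sorting of nuclei by the myocyte nuclear marker Pcm1, and which of these applies to a library is not settled by them.

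A voltage-gated calcium channel is a pore-forming α1 subunit joined by auxiliary subunits. L-type channels open at strong depolarisation and carry the calcium that triggers release from the sarcoplasmic reticulum in each heartbeat; T-type channels open near the resting potential, are made in the fetal ventricle and in pacemaker cells, and are known to decline in working ventricular myocytes after birth. The cytoplasmic β subunit brings the L-type pore to the membrane and shapes its gating, the extracellular α2δ subunit raises surface density, and γ subunits modulate gating.

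Library totals were 36619799 to 58538025 counts. Levels are given as CPM (counts per 1000000, scaled by library composition), which are not divided by gene length, so they compare 1 gene across libraries. Changes between ages are log2 fold changes ± SE from edgeR's quasi-likelihood test on all 9 libraries, with Benjamini-Hochberg adjusted p over 15817 genes and a threshold of 0.05. All 10 cardiomyocyte markers examined were present, at a summed 51004 to 91522 CPM. A marker score, the mean log2 CPM of 35 genes of endothelial cells, fibroblasts, smooth muscle, pericytes and leukocytes, lay between 1.85 and 2.43 for P1 libraries, 2.93 and 4.12 for P14 and 1.14 and 2.22 for P56, so markers of other cell types were highest at P14. A fit that carries this score as a term is called the marker-adjusted fit below. Its score term rests on differences among the 3 libraries of each age. P14 scores did not overlap those of P1 or P56, so age and score are largely confounded where P14 is compared. A call kept or lost in that fit does not measure the part of other cell types. In bulk RNA, fewer cells of a type and less RNA per cell cannot be told apart.

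Between P1 and P14, 1 of the 6 genes rose and 3 fell, beside 55.9% of all 15817 genes called in that comparison (28.4% up and 27.5% down). Between P14 and P56, 3 rose and 2 fell, beside 56.0% of all genes (27.5% up and 28.5% down). Between P1 and P56, 1 rose and 4 fell, beside 62.6% of all genes (30.9% up and 31.7% down). Median log2 changes of the 6 were −0.40, 0.17 and −1.33 in these comparisons, against 0.00, −0.02 and −0.03 over all genes. Of the 6, 5 differed among the ages, beside 78.0% of all genes, and Cacna1c was the exception. The change of the second interval less that of the first (the interval difference) passed the test for 4 of the 6, 3 above and 1 below 0, beside 50.0% of all genes (24.1% above and 26.0% below). With shares this high across the transcriptome, the number called says little about these genes, and their sizes and order in time are described below. The comparisons of P14 with P1 and of P56 with P14 share the P14 libraries, so a deviation of those libraries enters both with opposite sign.

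**Figure D1:**
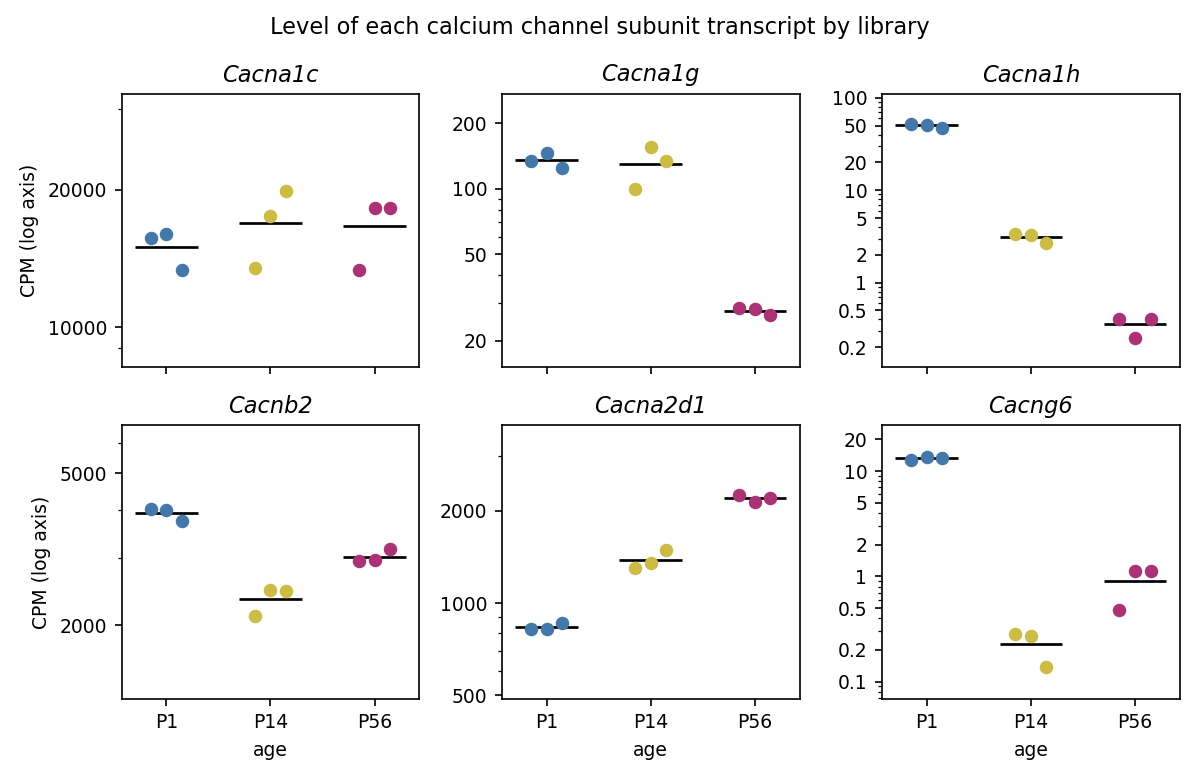
Level of each of the 6 transcripts in each library, in CPM on a log axis, by age, with points for the 3 libraries and a bar at their mean. Cacna1c overlapped at all ages, Cacna1h fell at each step from a mean of 50.2 to 0.354 CPM, Cacna2d1 rose at each step from 835 to 2196 CPM, and Cacnb2 and Cacng6 were lowest at P14.

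The L-type pore gene Cacna1c (ENSMUSG00000051331) lies on the minus strand at chr6:118587240-119196418 of GRCm38, a span of 609179 bp. RefSeq gives it 3 transcription starts on build GRCm38.p6, and windows of 300 bases around the 5′-most and the next are shown because they differ in base composition. Capitals mark the GC box GGGCGG, read as CCGCCC where it lies on the other strand, and matches may overlap.
Cacna1c start 1, chr6:119196360-119196659, minus strand: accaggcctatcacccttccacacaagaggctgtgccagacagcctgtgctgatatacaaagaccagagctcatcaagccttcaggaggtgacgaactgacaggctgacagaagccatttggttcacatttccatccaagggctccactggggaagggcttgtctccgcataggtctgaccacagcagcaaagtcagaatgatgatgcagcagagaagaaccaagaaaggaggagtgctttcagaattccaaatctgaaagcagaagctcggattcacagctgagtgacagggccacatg
Cacna1c start 2, chr6:119108446-119108745, minus strand: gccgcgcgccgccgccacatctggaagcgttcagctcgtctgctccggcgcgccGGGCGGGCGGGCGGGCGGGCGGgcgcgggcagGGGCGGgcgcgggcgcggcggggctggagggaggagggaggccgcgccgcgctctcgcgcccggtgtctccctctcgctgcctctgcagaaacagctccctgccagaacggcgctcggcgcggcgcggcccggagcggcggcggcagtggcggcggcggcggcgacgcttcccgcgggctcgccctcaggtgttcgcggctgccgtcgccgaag
The upstream window held 3 CpG dinucleotides at 51.3% G+C and no GC box, and the next held 57 at 81.3% G+C with 6 GC boxes. Over 32851 RefSeq promoters of that length the median was 7 CpG, and 35.7% held a GC box. Counts per gene do not say which start was used.

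Cacna1c took 1.29% to 1.85% of all counts and ranked 4 to 6 among the tested genes by CPM, across the libraries of all ages. CPM is not divided by gene length and this gene is long, so the rank is one of counts and not of transcript abundance. Its level was 15695, 15969 and 13340 CPM in the P1 libraries, 13517, 17486 and 19858 at P14, and 13352, 18287 and 18255 at P56. Each age held 1 library between 13340 and 13517 CPM and others above it, and all 3 ages overlapped. In the order of ages the means were 15002 ± 1445, 16954 ± 3204 and 16631 ± 2840 CPM (SD, n = 3 each). No difference passed the test. The log2 change was 0.18 ± 0.17 from P1 to P14 (95% interval −0.20 to 0.55, adjusted p = 0.394), −0.03 ± 0.17 from P14 to P56 (−0.40 to 0.35, adjusted p = 0.900) and 0.15 ± 0.17 from P1 to P56 (−0.23 to 0.52, adjusted p = 0.460). Between neighbouring ages the bounds reached −0.40 and 0.55, and smaller changes could not be resolved with these libraries.

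The spread of Cacna1c within an age ran with the markers of other cell types. At P1 the lowest Cacna1c library, replicate 3, had the highest marker score of its age (2.43), and the same held for replicate 1 at P14 (4.12) and replicate 1 at P56 (2.22). In the marker-adjusted fit Cacna1c was higher at P14 than at P1 by 0.77 (adjusted p = 0.00044) and lower at P56 than at P14 by 0.87 (adjusted p = 0.0026), and its P56 against P1 value was −0.09. The call for this gene between neighbouring ages therefore depended on whether that score was in the fit, and the part of other cell types in its level was not tested.

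**Figure D2:**
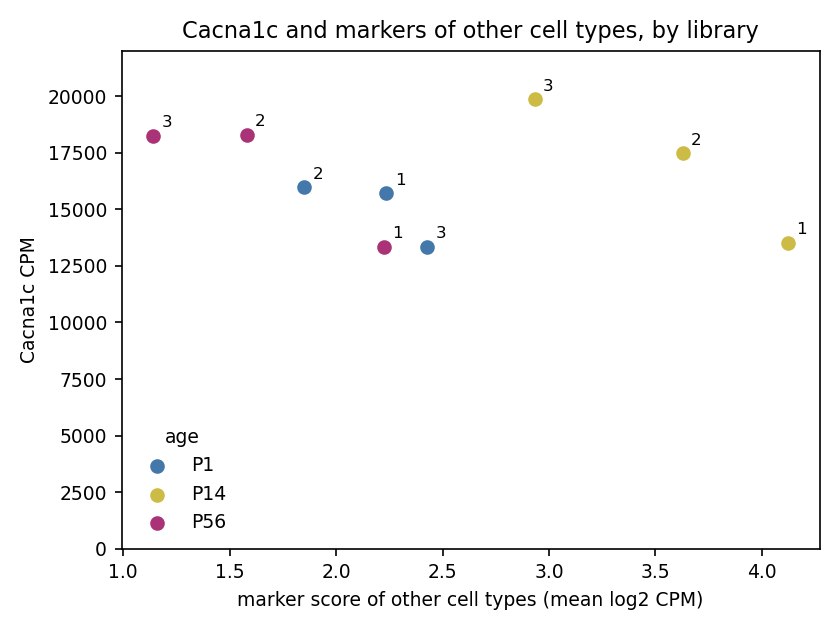
Cacna1c level in CPM (vertical axis) against the marker score of other cell types in mean log2 CPM (horizontal axis), with 1 point per library labelled by replicate number and coloured by age. In each age the library with the highest score had the lowest Cacna1c level, while P14 libraries as a group stood to the right of the others without standing lower.

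The T-type pore gene Cacna1g (ENSMUSG00000020866; minus strand, chr11:94408391-94474198) kept a similar mean level through the first interval and fell in the second. It stood at 134, 145 and 125 CPM at P1, at 99.8, 156 and 135 at P14, and at 28.2, 28.1 and 26.4 at P56. The P1 and P14 libraries overlapped, and every P56 library lay far below all the others. Means were 135 ± 10.2, 130 ± 28.2 and 27.6 ± 0.999 CPM (SD, n = 3 each). The log2 change was −0.05 ± 0.13 from P1 to P14 (95% interval −0.36 to 0.25, adjusted p = 0.749), and −2.24 ± 0.14 from P14 to P56 (adjusted p = 2.9e-06), a 4.71-fold fall. The changes of the 2 intervals differed from each other by −2.18 ± 0.23 (adjusted p = 8.26e-05). GC offsets in the fit reduced that difference to −1.30 (adjusted p = 0.0013). With offsets for GC content in the fit, the first interval was called as a fall (−0.41, adjusted p = 0.0253).

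The T-type pore gene Cacna1h (ENSMUSG00000024112; minus strand, chr17:25374285-25433783) fell in both intervals and had the largest total change among the 6 genes. Its levels were 52.7, 50.8 and 47.1 CPM at P1, 3.40, 3.30 and 2.68 at P14, and 0.408, 0.253 and 0.401 at P56. The 3 ages formed separate tiers with no overlap. Of all genes, 63.9% likewise did not overlap between P1 and P14, 59.5% between P14 and P56 and 72.2% between P1 and P56. The same shares stand beside the other genes whose libraries are said here not to overlap. Means were 50.2 ± 2.81, 3.12 ± 0.391 and 0.354 ± 0.0877 CPM, the last of them resting on 18, 11 and 18 counts. The log2 change was −4.00 ± 0.13 (adjusted p = 3.32e-08) in the first interval, −3.13 ± 0.17 (adjusted p = 1.22e-06) in the second, and −7.14 ± 0.16 (adjusted p = 1.6e-09) across both. The fall was smaller on the log2 scale in the second interval, by 0.87 ± 0.27 (adjusted p = 0.0209). That difference was no longer called without P14 replicate 3 (0.67, adjusted p = 0.0619), P56 replicate 1 (0.75, adjusted p = 0.0667) or P56 replicate 3 (0.77, adjusted p = 0.0657), nor in the marker-adjusted fit (1.34, adjusted p = 0.125), and with GC offsets it was 1.85 (adjusted p = 0.00061). A stretch of 158 exonic bp overlaps Tpsg1 on the opposite strand, and the sources used here do not give the strand setting of the counting.

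Side by side, the T-type genes followed different courses. From P1 to P14 Cacna1h went from a mean of 50.2 to 3.12 CPM while Cacna1g went from 135 to 130. Per kilobase of merged exons, Cacna1h was 27.9% ± 1.17 of the T-type sum (Cacna1g plus Cacna1h) at P1, 2.53% ± 0.769 at P14 and 1.32% ± 0.343 at P56 (SD, n = 3 each). By this measure the T-type transcript at P14 and P56 was almost wholly Cacna1g. The T-type sum itself was 18.5 ± 1.21, 13.1 ± 2.77 and 2.76 ± 0.0949 CPM per kb.

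On the same per-length scale Cacna1c far exceeded both T-type genes at every age. It stood at 708, 800 and 785 CPM per kb of exon at P1, P14 and P56, against 13.3, 12.8 and 2.72 for Cacna1g and 5.14, 0.320 and 0.0362 for Cacna1h. The T-type genes made up 2.55% ± 0.0994 of the sum of the 3 pores at P1, 1.62% ± 0.225 at P14 and 0.359% ± 0.0761 at P56. Divided by the whole gene span instead, their share was 10.5%, 6.81% and 1.57%, with the same order of ages. Cacna1c spans far more intron than the T-type genes, and the sources used here do not say whether intronic reads were counted, so the share has no single value. Across 13405 protein-coding genes, mean level rose with exon length and with gene span (Spearman 0.458 and 0.460 across genes, which are not independent replicates). In a linear fit of log2 mean CPM on both log2 lengths, the slopes were 0.826 for exon length and 0.382 for gene span.

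Atrial cells also hold T-type channels, and their markers were read beside these genes. All 6 atrial markers were present at a summed 28.5 to 38.2, 26.0 to 45.5 and 19.9 to 38.3 CPM. By edgeR's test 0 of them rose and 4 fell from P14 to P56, beside 27.5% of all genes up and 28.5% down. Nppa, which made up most of that sum at P56 (14.9 to 31.6 CPM), ranged over 14.4 to 21.5 at P1 and 13.7 to 31.8 at P14, and Myl4 over 10.4 to 11.8, 5.29 to 9.63 and 4.02 to 4.95 in the order of ages. The other 4 were at most 6.72 CPM in any library. The part of such cells in the fall of Cacna1g was not tested.

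**Figure D3:**
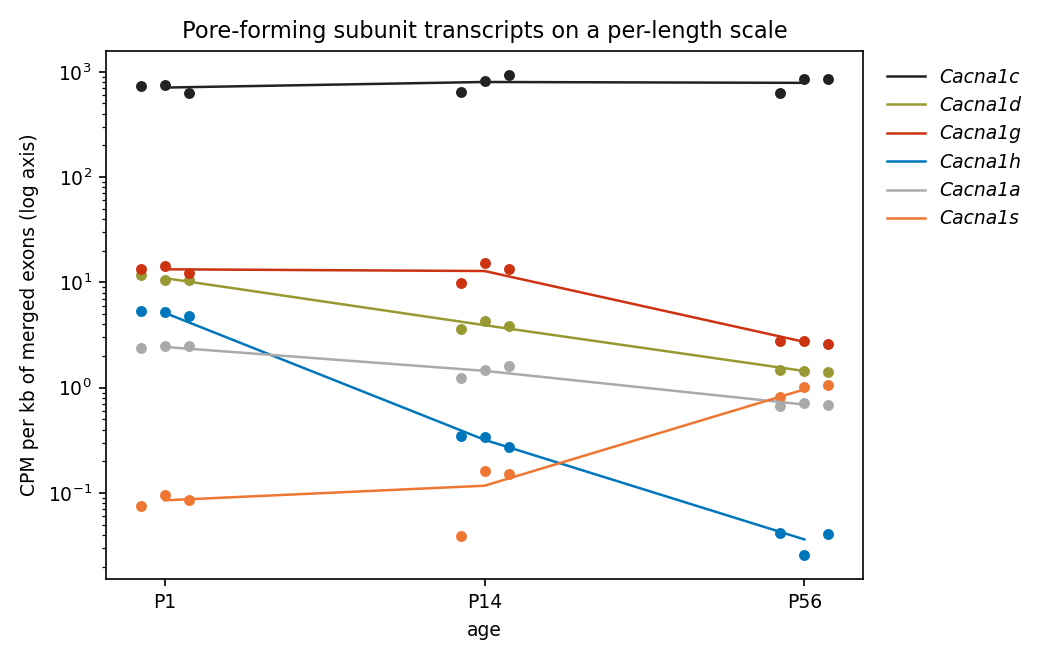
Levels of the pore-forming subunit transcripts in CPM per kb of merged exons on a log axis, by age, with points for libraries and lines through the means of 3. The age means of Cacna1c lay between 708 and 800 and its libraries between 630 and 937, while the means of Cacna1g went from 12.8 at P14 to 2.72 at P56, those of Cacna1h dropped at both steps, those of Cacna1d went from 11.0 to 1.44 and that of Cacna1s reached 0.963.

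The β subunit gene Cacnb2 (ENSMUSG00000057914; plus strand, chr2:14603088-14987908) encodes the main cardiac β subunit. RefSeq gives it 2 starts, of which the 5′-most is shown because it is the CpG-rich one, with 35 CpG and 1 GC box at 71.7% G+C, while the other has 4 CpG at 44.0%.
Cacnb2 start 1, chr2:14604056-14604355, plus strand: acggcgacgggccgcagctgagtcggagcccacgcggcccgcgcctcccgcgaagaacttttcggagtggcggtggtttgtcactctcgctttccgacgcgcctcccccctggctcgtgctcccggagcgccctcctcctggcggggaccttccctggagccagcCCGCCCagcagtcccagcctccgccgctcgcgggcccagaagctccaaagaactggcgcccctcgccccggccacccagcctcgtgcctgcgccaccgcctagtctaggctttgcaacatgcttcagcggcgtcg
Its levels were 4039, 4021 and 3751 CPM at P1, 2123, 2470 and 2458 at P14, and 2952, 2966 and 3170 at P56. All P14 libraries lay below all P56 libraries, which lay below all P1 libraries. Means were 3937 ± 161, 2350 ± 197 and 3029 ± 122 CPM (SD, n = 3 each). Cacnb2 fell by 0.74 ± 0.08 on the log2 scale from P1 to P14 (adjusted p = 4.67e-05), rose by 0.37 ± 0.08 from P14 to P56 (adjusted p = 0.0034), and ended lower at P56 than at P1 by 0.38 ± 0.08 (adjusted p = 0.0022). The 2 intervals differed by 1.11 ± 0.14 (adjusted p = 0.000223), and by less in the marker-adjusted fit (0.68, adjusted p = 0.0359) or under GC offsets (0.75, adjusted p = 0.0315). The rise to P56 was not called in the marker-adjusted fit (0.12, adjusted p = 0.527) or with GC offsets (0.20, adjusted p = 0.257), and the fall from P1 to P14 was called in both. The Cacnb2 span holds 15 other annotated genes, of which 1, Gm10848, was in the table with 104 counts in all 9 libraries. On the opposite strand Gm10849, Gm13269 and Gm10848 share 618, 239 and 111 exonic bp with Cacnb2, and the strand setting of the counting is not given.

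The α2δ subunit gene Cacna2d1 (ENSMUSG00000040118; plus strand, chr5:15934691-16374511) encodes the binding site of gabapentin. It has 1 RefSeq start, shown beside those above as a further CpG-rich promoter, with 42 CpG and 7 GC boxes at 80.0% G+C.
Cacna2d1, chr5:15934441-15934740, plus strand: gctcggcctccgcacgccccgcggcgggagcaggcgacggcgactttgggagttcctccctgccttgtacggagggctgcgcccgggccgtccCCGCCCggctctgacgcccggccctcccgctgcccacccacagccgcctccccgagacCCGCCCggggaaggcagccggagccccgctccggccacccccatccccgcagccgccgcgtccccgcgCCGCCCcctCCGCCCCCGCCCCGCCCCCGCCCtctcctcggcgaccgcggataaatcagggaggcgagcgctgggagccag
Its transcript rose in both intervals. Levels were 820, 825 and 858 CPM at P1, 1303, 1351 and 1483 at P14, and 2250, 2134 and 2204 at P56. Every P14 library lay above all P1 libraries and below all P56 libraries. Means were 835 ± 20.8, 1379 ± 93.5 and 2196 ± 58.7 CPM (SD, n = 3 each). The rise was 0.72 ± 0.07 from P1 to P14 (adjusted p = 1.72e-05) and 0.67 ± 0.07 from P14 to P56 (adjusted p = 3.66e-05), or 1.40 ± 0.07 in all (adjusted p = 1.11e-07), a 2.63-fold rise. The rises of the 2 intervals did not differ detectably (−0.05 ± 0.11, 95% interval −0.31 to 0.20, adjusted p = 0.723).

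The auxiliary transcripts changed relative to the L-type pore, as ratios within each library that need no scaling between libraries. Per kilobase of exon, Cacnb2 was 42.2% ± 2.50 of Cacna1c at P1, 22.5% ± 2.67 at P14 and 29.7% ± 5.00 at P56 (SD, n = 3 each). Cacna2d1 was 9.57% ± 1.22, 14.1% ± 2.02 and 23.1% ± 4.92 of Cacna1c. Neither ratio overlapped between any 2 ages, with the Cacna2d1 ratio lowest in a P1 library (8.82%) and highest in a P56 library (28.8%). The margin was narrow for Cacnb2, at most 25.2% at P14 and at least 26.0% at P56. Ratios were not tested, and no share over all genes was computed for them. In CPM the libraries of Cacnb2 and Cacna2d1 did not overlap between ages either, beside 59.5% to 72.2% of all genes. The P56 library with the highest values of both ratios, replicate 1, was the one with the lowest Cacna1c of that age.

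The γ subunit gene Cacng6 (ENSMUSG00000078815; plus strand, chr7:3424195-3435667) encodes a γ subunit known to reduce T-type current when made together with the Cacna1g pore in cultured cells. Its 1 RefSeq start is shown as the contrast to the CpG-rich windows, with 8 CpG at 52.7% G+C and no GC box. Capitals here mark GGAATG, read as CATTCC on the other strand, the core letters of the MCAT element bound by TEAD factors, found once here and in 14.7% of all RefSeq promoters on either strand.
Cacng6, chr7:3424412-3424711, plus strand: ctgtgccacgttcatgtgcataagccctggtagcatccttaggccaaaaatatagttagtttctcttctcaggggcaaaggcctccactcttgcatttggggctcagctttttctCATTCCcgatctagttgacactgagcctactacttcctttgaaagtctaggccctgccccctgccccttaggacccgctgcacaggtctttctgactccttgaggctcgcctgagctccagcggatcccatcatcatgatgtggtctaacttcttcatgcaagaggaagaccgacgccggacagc
A match of letters is a description of the sequence and not a binding site.

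Of the 6 genes Cacng6 had the largest fall from P1 to P14. It stood at 12.8, 13.5 and 13.3 CPM at P1, at 0.281, 0.270 and 0.138 at P14, and at 0.476, 1.13 and 1.14 at P56. All P14 libraries lay below all P56 libraries, and both lay far below P1. The P14 values rest on 11, 10 and 5 counts and the P56 values on 21, 49 and 51. Cacng6 fell by 5.82 ± 0.33 on the log2 scale from P1 to P14 (adjusted p = 7.22e-07), rose by 1.97 ± 0.37 from P14 to P56 (adjusted p = 0.0016) and remained lower at P56 than at P1 by 3.85 ± 0.27 (adjusted p = 1.07e-06). That rise was not called in the marker-adjusted fit (1.24, adjusted p = 0.176).

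**Figure D4:**
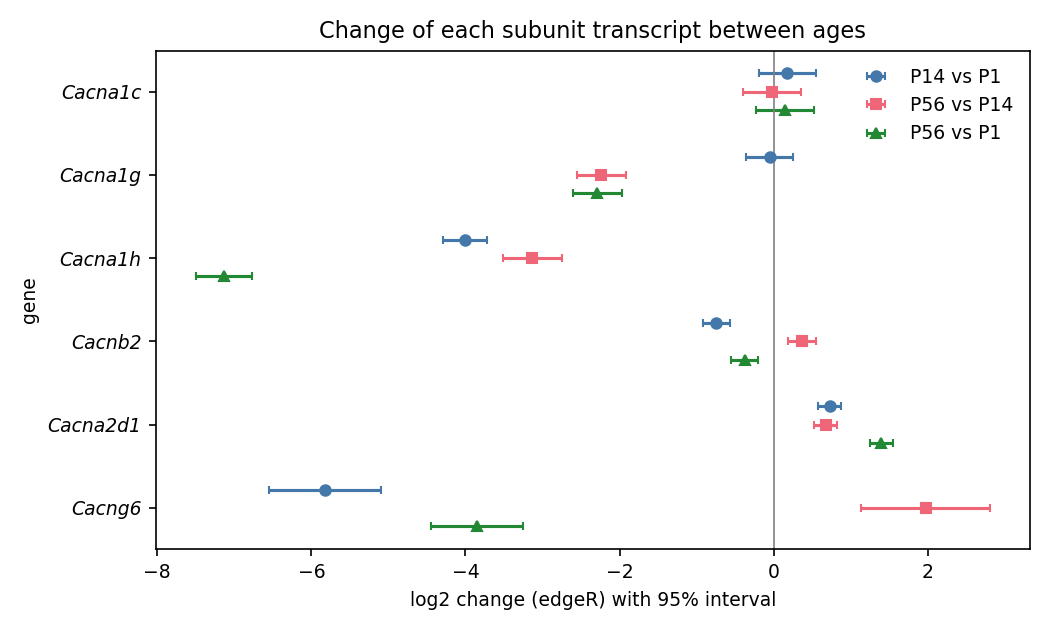
Log2 change of each of the 6 transcripts in the 3 comparisons of ages, from edgeR, with 95% intervals (horizontal axis, log2 units). The intervals of Cacna1c cross 0 in all 3 comparisons, Cacna1h lies between −3.13 and −7.14, Cacna2d1 is above 0 throughout, and Cacnb2 and Cacng6 lie below 0 from P1 to P14 and above 0 from P14 to P56.

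The other subunit genes of the family were read from a list of 20, of which 10 were in the table. From P1 to P14, 4 of these rose and 2 fell (median 0.56), beside 55.9% of all genes called (28.4% up and 27.5% down). From P14 to P56, 2 rose and 7 fell (median −0.94), beside 56.0% (27.5% up and 28.5% down). From P1 to P56, 3 rose and 6 fell (median −0.97), beside 62.6% (30.9% up and 31.7% down). Medians over all genes were 0.00, −0.02 and −0.03. Among the pores, Cacna1d, the L-type pore of pacemaker and atrial cells, was 150, 133 and 133 CPM at P1, 45.2, 54.8 and 48.6 at P14, and 18.5, 18.2 and 17.9 at P56. The 3 ages did not overlap, and Cacna1d fell by 1.48 ± 0.08 and then by 1.45 ± 0.08 on the log2 scale (adjusted p = 5.88e-07 and 1.46e-06). Cacna1s, the L-type pore of skeletal muscle, ranged over 0.490 to 0.625, 0.256 to 1.05 and 5.37 to 6.93 CPM in the order of ages. It rose by 3.04 ± 0.36 in the second interval (adjusted p = 0.000105), to a per-length level of 0.963 CPM per kb against 785 for Cacna1c. Cacna1a, the P/Q-type pore best known from neurons, fell in both intervals, by 0.75 ± 0.10 and 1.06 ± 0.10 (adjusted p = 0.000136 and 2.56e-05).

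Auxiliary genes outside the 6 were measured as well. Among the β genes, Cacnb4 was 19.3 to 20.4 CPM at P1 and 8.52 to 9.27 at P56, and fell by 1.15 ± 0.14 between them (adjusted p = 4.93e-05). Cacnb1, the skeletal muscle β gene, rose from P1 to P14 by 0.87 ± 0.14 (adjusted p = 0.000481) to 9.97 to 12.6 CPM. Cacnb3 fell by 2.59 ± 0.29 from P14 to P56 (adjusted p = 6.53e-05). Cacna2d3, a further α2δ gene, rose in both intervals as Cacna2d1 did, by 1.11 ± 0.16 and 0.89 ± 0.16 (adjusted p = 0.000304 and 0.000996), and reached 10.4 to 11.6 CPM at P56. Its second rise was not called in the marker-adjusted fit (0.58). Cacna2d2 stood at 2.47 to 4.46 CPM over all libraries and was lower at P56 than at P1 by 0.67 ± 0.15 (adjusted p = 0.0026).

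**Figure D5:**
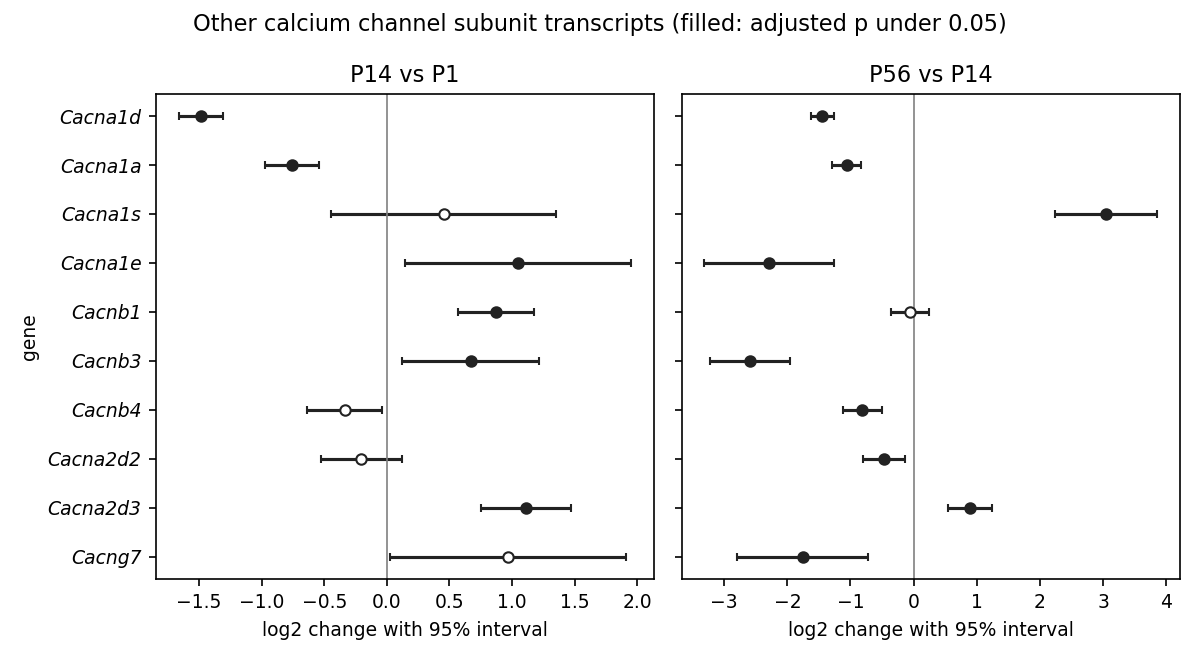
Log2 change from edgeR, with 95% intervals, of the 10 other calcium channel subunit genes in the table, from P1 to P14 (left) and from P14 to P56 (right), with filled points for adjusted p under 0.05. Cacna1d and Cacna1a lie below 0 in both panels, Cacna2d3 above 0 in both, and Cacna1s at 3.04 stands apart on the right.

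Several of these changes ran with the markers of other cell types. From P1 to P14 all 10 endothelial markers rose, and from P14 to P56 all 10 fell, with summed levels of 72.3 to 103, 220 to 561 and 37.7 to 94.3 CPM in the order of ages. Of 10 fibroblast markers 5 rose and 1 fell, then 9 fell (155 to 312, 216 to 791 and 49.5 to 97.2 CPM), and of 8 smooth muscle and pericyte markers 5 rose and 2 fell, then 6 fell (168 to 196, 197 to 296 and 51.9 to 85.2 CPM). Of 9 leukocyte markers 7 were in the table, and 6 of these rose from P1 to P14 (3.30 to 4.95, 7.01 to 20.2 and 6.28 to 12.9 CPM). From P14 to P56, 0 of the 7 rose and 0 fell, and 5 were higher at P56 than at P1. None of the measured markers was at 0. Over all genes, 28.4% were called up and 27.5% down from P1 to P14, and 27.5% up and 28.5% down from P14 to P56. Cacna1e, called as a rise from P1 to P14 (1.05 ± 0.40, adjusted p = 0.0493), stood at −0.60 in the marker-adjusted fit and also lost its call without any of 7 single libraries (0.67 to 1.11). Cacng7, called as a fall from P14 to P56 (−1.76 ± 0.46, adjusted p = 0.0091), stood at 0.49 in the marker-adjusted fit. The falls of Cacna1g, Cacna1h and Cacna1d from P14 to P56 and the rises of Cacna2d1 were still called in that fit. Because P14 scores stood apart from those of the other ages, that fit cannot measure the part of other cell types in these changes, which was not tested.

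Regulators of the channel were taken from lists of known partners. Of 7 genes of RGK GTPases, which inhibit L-type channels, and STAC adaptors, which bind them, 5 were in the table. By edgeR's test 2 rose and 0 fell from P1 to P14, beside 28.4% of all genes up and 27.5% down. From P14 to P56, 0 rose and 3 fell, beside 27.5% of all genes up and 28.5% down. Rrad, the RGK protein through which β-adrenergic signalling acts on the L-type channel in mouse heart, was 30.0, 34.2 and 31.9 CPM at P1, 28.0, 30.9 and 39.3 at P14, and 45.6, 37.1 and 39.2 at P56. Its libraries overlapped between neighbouring ages but not between P1 and P56, and Rrad rose between those ages by 0.34 ± 0.13 (adjusted p = 0.0364). That call was lost without P1 replicate 1 or 3 or P56 replicate 1 or 3 (0.26 to 0.37), and in the marker-adjusted fit (0.28, adjusted p = 0.059). Rem1 (1.59 ± 0.47, adjusted p = 0.0163) and Stac (2.10 ± 0.40, adjusted p = 0.0016) rose to P14 and fell after it, but neither was called in either interval of the marker-adjusted fit, where Rem1 stood at −0.54 and 0.78.

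Among 12 genes of channel-associated signalling, 3 rose and 1 fell from P1 to P14, beside 55.9% of all genes called (28.4% up and 27.5% down). From P14 to P56, 1 rose and 5 fell, beside 56.0% of all genes (27.5% up and 28.5% down). Prkaca, a catalytic subunit gene of protein kinase A, fell in both intervals, by 0.38 ± 0.08 and 0.21 ± 0.08 (adjusted p = 0.0019 and 0.0377), and its first fall was not called in the marker-adjusted fit (−0.14). Calm3, 1 of 3 genes for calmodulin, the calcium sensor of the channel, fell by 1.32 ± 0.10 from P14 to P56 (adjusted p = 7.1e-06). Bin1, which brings L-type channels to T-tubules, ranged over 1.16 to 1.74, 2.95 to 10.9 and 0.735 to 1.56 CPM in the order of ages. It was highest in the P14 library with the highest marker score, and neither its rise nor its fall was called in the marker-adjusted fit (0.29 and −0.07).

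Levels of 3 transcription factors known to regulate channel genes in mouse heart were measured. Rest, a repressor of Cacna1h in the mouse ventricle, was 23.5, 23.0 and 24.6 CPM at P1, 17.5, 16.9 and 16.3 at P14, and 13.8, 11.6 and 11.9 at P56. Its libraries did not overlap between ages. Of all genes, 63.9% did not overlap between P1 and P14, 59.5% between P14 and P56 and 72.2% between P1 and P56. Rest, whose relation to the fall of Cacna1h was not tested, fell by 0.49 ± 0.08 and 0.44 ± 0.08 (adjusted p = 0.00082 and 0.0016). The second fall was not called in the marker-adjusted fit (−0.17). Tbx3, a conduction system factor, rose by 0.91 ± 0.21 and fell by 0.96 ± 0.22 (adjusted p = 0.0051 and 0.0042), neither of them called in that fit (0.46 and −0.34). Nkx2-5 fell by 0.56 ± 0.16 from P14 to P56 (adjusted p = 0.0126), while the value with GC offsets was 0.12.

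The genes whose levels followed each member most closely were ranked by Pearson's r of log2 CPM over the 9 libraries, given without a test. The libraries share 3 ages, so for members that differed among the ages r mostly reflects the 3 age means. Cacna1c did not differ among the ages (adjusted p = 0.571 by edgeR's test), and its r mostly reflects the spread of libraries within ages. Cacna1c was closest to the long cytoskeletal linker gene Macf1 (r = 0.984) and the kinesin gene Kif13a (0.975), neither of which differed much in mean level between ages (1456 to 1540 and 393 to 427 CPM). Cacna1g was closest to the non-muscle α-actinin gene Actn4 (0.994) and the thyroid hormone receptor gene Thra (0.992). Cacna1h was closest to the protocadherin gene Pcdh11x (0.999) and the matrix gene Fras1 (0.998), which went from 84.9 to 9.28 to 2.44 CPM. Cacnb2 was closest to the transporter gene Slc6a17 and the phosphorylase kinase gene Phka2 (both 0.991), Cacna2d1 to the proteasome activator gene Psme4 and the ketone body enzyme gene Oxct1 (both 0.998), and Cacng6 to the DNA glycosylase gene Neil2 (0.996) and the dystrobrevin gene Dtnb (0.994).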

How the data were processed

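Ribosome-depleted RNA from 9 cardiomyocyte libraries was measured. The deposited values are raw counts per gene; reads were aligned with STAR 2.4.0g1 to GRCm38 and counted with featureCounts 1.4.2, per the submitters' processing notes, and the feature type and strand setting are not given in the sources used here. Every gene in the table averaged at least 10 counts. Counts were fitted with edgeR 4.0.16 in R 4.3.3 (TMM scaling, filterByExpr, which removed 7 genes, glmQLFit on all 9 libraries, glmQLFTest, Benjamini-Hochberg). The biological coefficient of variation was 13.9%. SE is the log2 change divided by the square root of F. The procedure was also run on simulated counts in which few genes differed, only at P14, with a common dispersion. False calls there were 4.10% of edgeR's calls for P14 vs P1 and 6.90% for the interval difference. For DESeq2 they were 9.80% and 8.29%. Far more genes were called in the real data, so these shares need not hold for them.

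Members were matched by symbol. The members, the lists of other subunits, regulators and markers, and the rule for naming genes (all members, the listed subunits and regulators, and the 2 genes most like each member) were chosen with earlier results of these data known. Lengths and overlaps came from GENCODE M21, and promoters from RefSeq (GRCm38.p6), which matched 4 members; Cacna1g and Cacna1h had no entry. Alternatives were DESeq2 1.42.0, its size factors, no filter, leaving out each library, only the ages compared, a replicate block, the marker score as a covariate, and offsets from a spline of GC content of the longest annotated transcript (merged-exon GC was not used here). Counts limit precision for Cacna1h and Cacng6 at the later ages. They also limit it at P56 for Cacnb3 (10 to 18 counts), Cacna1e (9 to 16), Cacng7 (10 to 15) and Stac (5 to 19). For Cacna1s they were 10 to 39 at P14. Conduction system markers are not reported here.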

Additional observations from a re-analysis of the deposited data

How the results depend on the processing

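Size factors of DESeq2, DESeq2 itself, no filter and the replicate block left every call of the 6 genes and its direction as reported. So did the fits of only the 2 ages compared, which give no interval difference. Replicate numbers shared no origin in the labels, same-numbered libraries had correlations of deviations from −0.219 to 0.493, and with the replicate block 8824, 8847, 9998 and 7857 genes were called (P14 vs P1, P56 vs P14, P56 vs P1, interval difference) against 8843, 8860, 9904 and 7916.

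Leaving out 1 library in turn, the values that crossed 0 or their threshold ran from −0.20 to 0.10 (Cacna1g, P14 vs P1), −0.17 to 0.11 (Cacna1c, P56 vs P14), −0.48 to 0.054 (Cacna1c, interval difference), −0.13 to 0.057 (Cacna2d1, interval difference) and 0.67 to 1.06 (Cacna1h, interval difference).

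With the marker score in the fit, Cacna1c moved to 0.77 (P14 vs P1), −0.87 (P56 vs P14), −0.091 (P56 vs P1) and −1.64 (interval difference), Cacna1g to 0.17 (P14 vs P1), Cacng6 to 1.24 and Cacnb2 to 0.12 (P56 vs P14), and Cacna1h to 1.34 (interval difference, adjusted p = 0.125). The count called was then 4998 for P56 vs P14 and 5134 for the interval difference. In that fit Cacna1e (P14 vs P1) was −0.60, Cacng7 (P56 vs P14) 0.49, and Rem1 −0.54 and 0.78 in the 2 intervals. The cause was not tested.

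GC offsets moved the median of all genes to 0.13 (P56 vs P14) and 0.19 (interval difference). They gave −0.41 for Cacna1g (P14 vs P1), and 0.14 for Cacna1c, 0.20 for Cacnb2 and 0.12 for Nkx2-5 (P56 vs P14), which are 0.00, 0.06 and −0.02 relative to that median. The Cacna1c interval difference was 0.031, or −0.16 relative to the median, and those of Cacna1g, Cacna1h and Cacnb2 were −1.30, 1.85 and 0.75, all called. The cause was not tested. By gene span the T-type share was 10.5%, 6.81% and 1.57% and the Cacna1h share of the T-type sum at P1 was 29.2%. For the other subunits and regulators, 772 of 832 alternative values kept call and direction, 55 lost a call and 5 reversed.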
